A study of Homo sapiens with 6 samples.

Results

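The genes examined here carried the symbol ZNF followed by digits and had a mean value over the 6 arrays of at least 6.0 on the log2 scale. Of 467 such genes on the array, 146 (31.3%) reached that level, among 14884 named genes in all. Where several transcript clusters, the array's units of measurement, had the same symbol, the one with the highest mean was taken, and pseudogenes and antisense transcripts were left out. The genes were thus chosen by their mean level over both groups, and not by the difference between them.

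The cells were D283, an established medulloblastoma (MB) line with features of Group 3 and Group 4 tumors, grown as tumorspheres in medium with EGF and bFGF. OTX2, a homeobox transcription factor of the developing brain and retina, was knocked down with 1 siRNA sequence (OTX2 KD, n = 3), and the control received a non-silencing siRNA (scramble, n = 3). Per the methods of the study the replicates were biological ones, all of 1 cell line, and the time after siRNA delivery was not given in the sources used here. Values are log2 robust multi-array average (RMA) values.

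Most ZNF proteins belong to the C2H2 class, in which a row of small zinc-bound fingers reads DNA, and they form one of the largest groups of transcription factors in the human genome. Many also carry a KRAB domain, which binds the corepressor TRIM28 and through it recruits enzymes that methylate histones and compact chromatin, largely over transposable elements. Such genes arose by repeated duplication and lie in clusters, many of them on chromosome 19. Other ZNF proteins have no KRAB domain and act in chromatin complexes, RNA processing or ribosome quality control, and a few bear the symbol without being transcription factors.

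Following OTX2 KD, more of the well-expressed ZNF genes rose than fell. At an adjusted p below 0.05, 53 of the 146 (36.3%) were higher in OTX2 KD and 23 (15.8%) were lower, while 70 did not pass. Among all 53617 clusters of the array, 14.8% were higher and 13.1% lower, and among the 4274 other protein-coding genes at the same level, 23.6% were higher and 40.6% lower. The median log2 fold change was 0.15 in the ZNF genes (quartiles -0.13 and 0.43), compared with 0.05 over all clusters and -0.14 in the other coding genes at that level. With each array centred on its median, the split was 41 higher (28.1%) and 31 lower (21.2%) at a median of 0.06, compared with 20.2% higher and 46.3% lower among the other coding genes under the same centring. No set test was run, so these shares are a description.

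The 3 arrays of one group lay entirely above or below the 3 of the other in 108 ZNF genes (74%), compared with 42% of all clusters and 82% of the other coding genes at the same level. OTX2 KD was above in 73 of them (50%) and below in 35 (24%), against 31.3% and 50.7% of the other coding genes. All 76 genes that passed the adjusted threshold were without overlap. Changes were mostly modest, since 7 genes (4.79%) were at least 2-fold higher and 2 (1.37%) at least 2-fold lower, compared with 3.12% and 3.62% of all clusters and 6.22% and 11.5% of the other coding genes at that level. In number, 96 of the 146 genes had a positive fold change and 50 a negative one.

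**Figure D1:**
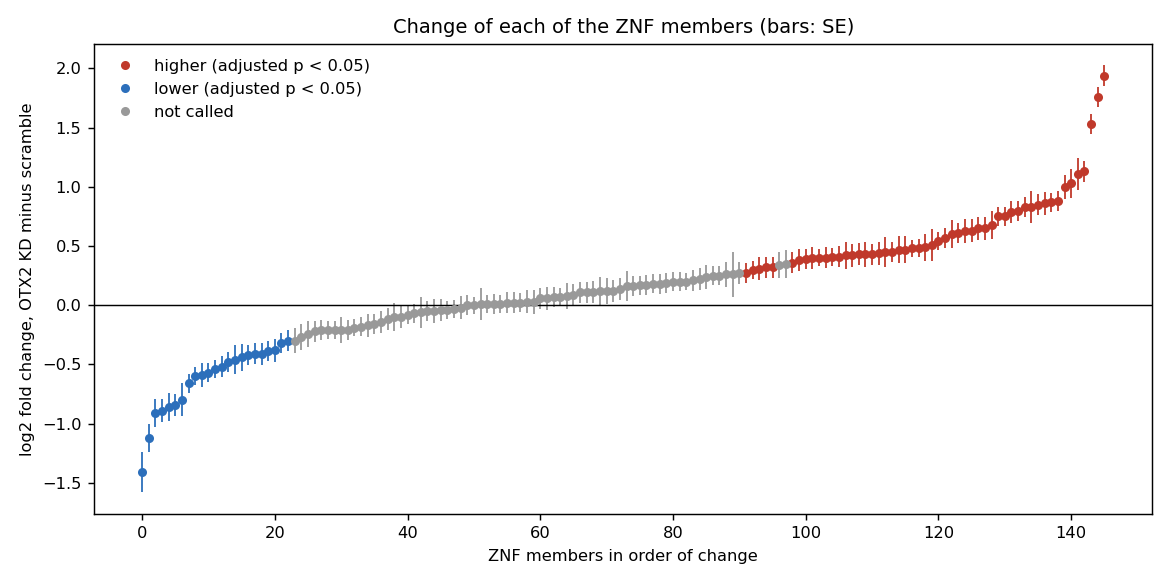
Log2 fold change of OTX2 KD over scramble (y axis) for each of the 146 ZNF genes in order of change (x axis), with the standard error of the fit as bars (n = 3 arrays a group). Genes higher at an adjusted p below 0.05 (53) are red, lower (23) blue and the other 70 grey, and the changes ran from -1.41 to 1.94.

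**Figure D2:**
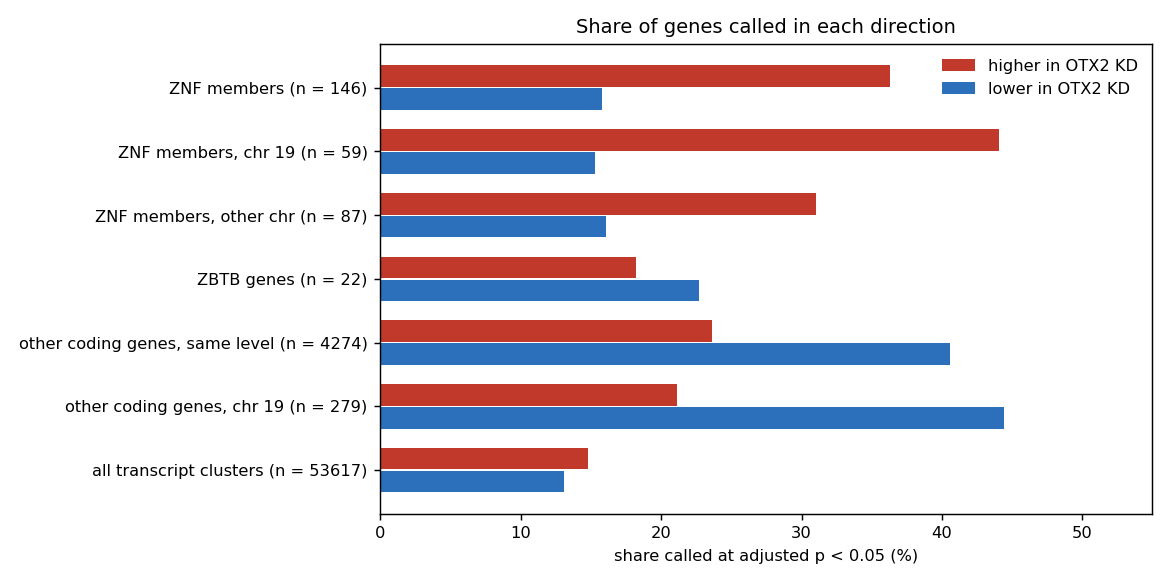
Percent of genes called higher (red) or lower (blue) in OTX2 KD at an adjusted p below 0.05, for the ZNF genes, the ZNF genes on chromosome 19 and elsewhere, ZBTB genes, other coding genes of the same level in all and on chromosome 19, and all transcript clusters. The ZNF genes were 36.3% higher and 15.8% lower, while the other coding genes of that level were 23.6% higher and 40.6% lower.

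In the targeted gene itself, OTX2 read 9.62, 9.57 and 9.57 in the OTX2 KD arrays and 10.56, 10.56 and 10.55 in scramble, so that it fell by 0.97 on the log2 scale (SE 0.0734, adjusted p = 8.7e-05). Array medians were 3.67 to 3.71 in OTX2 KD and 3.60 to 3.61 in scramble, and arrays correlated at 0.990 to 0.993 within groups and 0.959 to 0.965 between them. All 8 proliferation markers fell (array means 5.70 to 5.97 in OTX2 KD, 8.33 to 8.36 in scramble). Of 9 listed neuronal markers, 5 had a cluster annotated to that symbol alone, and these 5 rose (8.68 to 8.77 against 6.65 to 6.73). Of 12 listed Group 3 and Group 4 markers, 10 had such a cluster, with 3 higher and 6 lower. OTX2, the targeted gene, was itself among the 6 lower ones. Of all clusters 14.8% were higher and 13.1% lower, and the list was too short to set against these shares. Listed markers without such a cluster were not followed. Those of astrocytes, oligodendrocytes, leukocytes and endothelium or mesenchyme that had one gave array means between 2.60 and 4.01. Of these 9 genes, 1 passed the test (CLDN11, 0.49 higher). The part of the shift in proliferation and neuronal markers in the ZNF results was not tested, and in such bulk samples fewer cells of a type and less RNA per cell cannot be told apart.

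The largest rise was in ZNF189, a KRAB zinc finger gene on chromosome 9. Its values were 8.39, 8.21 and 8.30 in OTX2 KD and 6.33, 6.32 and 6.44 in scramble, and every OTX2 KD array was far above every scramble array. The difference was 1.94 (SE 0.0867, adjusted p = 1.01e-05), or 3.83-fold. ZNF25, another KRAB gene, on chromosome 10, read 8.16, 8.07 and 8.07 against 6.38, 6.24 and 6.39, a difference of 1.76 (SE 0.0835, adjusted p = 1.27e-05). ZNF704 read 8.36, 8.31 and 8.23 against 6.83, 6.80 and 6.68, a difference of 1.53 (SE 0.0842, adjusted p = 2.3e-05). Their scramble means were 6.36, 6.34 and 6.77. Of these only that of ZNF704 was near the median ZNF level of 6.76, and those of ZNF189 and ZNF25 were below it. The OTX2 KD means of all of them were above 8, a mean level that 15 of the 146 genes had over all arrays.

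Of the 12 largest rises, taken from called genes without overlap between groups, 8 lay on chromosome 19. ZNF548, a KRAB gene, read 7.11, 7.0 and 7.02 in OTX2 KD against 5.93, 5.81 and 6.01 in scramble, a difference of 1.13 (SE 0.0883). ZNF737 differed by 1.11 (SE 0.135) and ZNF506 by 1.00 (SE 0.103). The remaining rises among the 12 were smaller than 2-fold apart from ZNF91, which is given with its group below. They were ZNF71 at 0.88, ZNF160 at 0.87, ZNF711 at 0.86, ZNF841 at 0.85 and ZNF254 at 0.83, all with adjusted p of at most 0.00288. Among the 12, ZNF548, ZNF91, ZNF506 and ZNF160 had scramble means of 5.92, 5.99, 5.96 and 5.62, and so reached the level limit through OTX2 KD.

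The largest fall was in ZNF850, a KRAB gene on chromosome 19. It read 5.49, 5.98 and 6.15 in OTX2 KD and 7.15, 7.33 and 7.37 in scramble, so that the OTX2 KD arrays were spread more widely (SD 0.341) than those of scramble (SD 0.120) and yet all were lower. It fell by 1.41 (SE 0.172, adjusted p = 0.000802), or 2.66-fold. ZNF330, which encodes a nucleolar protein, read 6.66, 6.29 and 6.56 against 7.72, 7.52 and 7.62, and fell by 1.12 (SE 0.119, adjusted p = 0.000426). No other member fell by 2-fold. Falls of ZNF607 (by 0.91), ZNF511 (by 0.89), ZNF703 (by 0.86), ZNF687 (by 0.84) and ZNF581 (by 0.80) came next, followed by ZNF326, ZNF584, ZNF695, ZNF507 and ZNF770 between -0.66 and -0.54. ZNF850, ZNF607, ZNF511 and ZNF584 had OTX2 KD means under the limit of 6.0 (5.87 in ZNF850, 5.61 in ZNF511, 5.76 in ZNF584 and just under the limit in ZNF607), so they were members through their scramble values.

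**Figure D3:**
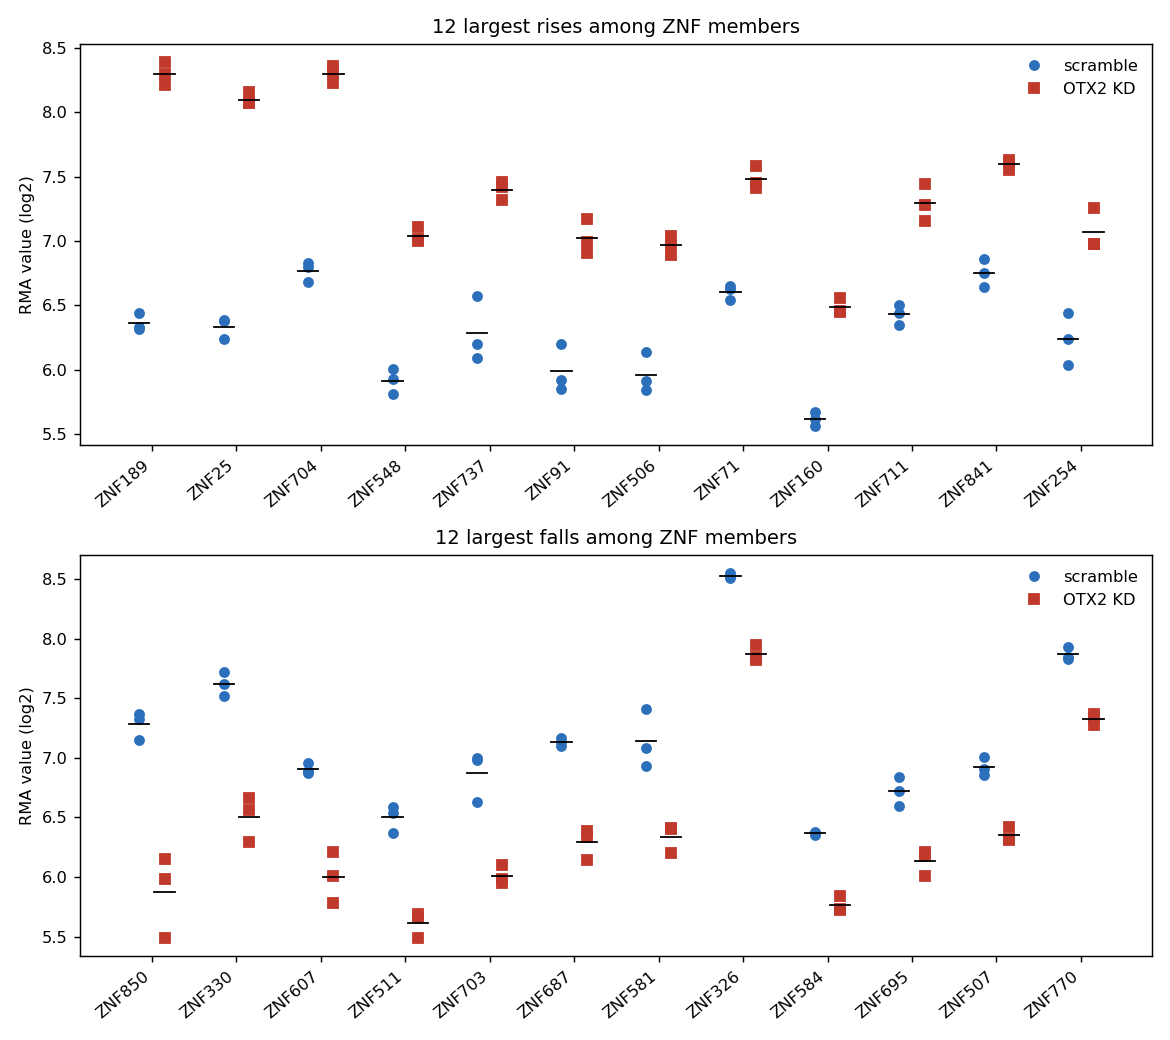
RMA values (y axis, log2) of the 12 ZNF genes with the largest rises (upper panel) and the 12 with the largest falls (lower panel) in each of 3 scramble arrays (blue circles) and 3 OTX2 KD arrays (red squares), with group means as black lines. The 24 genes were taken from called genes whose groups did not overlap, and the widest spread within a group was in ZNF850 (SD 0.341 in OTX2 KD).

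Promoter sequence was looked at next, since OTX2 binds DNA directly. RefSeq windows (GRCh38.p14) from 250 bases before to 50 after the gene start were matched to 128 of the 146 genes, the first listed start being used. The core recognized by OTX2 and related homeobox proteins was searched as TAATCC, which reads GGATTA on the other strand. Its variant TAATCT was searched in the same way on both strands, where it reads AGATTA. The core recognized by ZNF143, a transcription factor that is itself a member, was searched as ACTACANNTCCC on both strands and was added after the promoters had been read. The words do not overlap in the windows shown. The windows of ZNF189 and ZNF850 are shown as those of the largest rise and the largest fall, and those of ZNF286A and ZNF106 because these were the called genes that held OTX2 letters. Each is printed 5′ to 3′ on the gene's strand, with the searched letters in capitals. The positions are chr9:101398601-101398900 (plus strand) for ZNF189, chr19:36772758-36773057 (minus) for ZNF850, chr17:15699502-15699801 (plus) for ZNF286A and chr15:42491092-42491391 (minus) for ZNF106.
ZNF189: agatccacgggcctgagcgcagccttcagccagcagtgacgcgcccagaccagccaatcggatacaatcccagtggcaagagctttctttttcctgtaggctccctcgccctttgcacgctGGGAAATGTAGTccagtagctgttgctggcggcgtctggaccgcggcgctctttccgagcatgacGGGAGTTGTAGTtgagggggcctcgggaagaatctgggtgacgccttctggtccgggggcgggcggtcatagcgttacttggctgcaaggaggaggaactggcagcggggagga
ZNF850: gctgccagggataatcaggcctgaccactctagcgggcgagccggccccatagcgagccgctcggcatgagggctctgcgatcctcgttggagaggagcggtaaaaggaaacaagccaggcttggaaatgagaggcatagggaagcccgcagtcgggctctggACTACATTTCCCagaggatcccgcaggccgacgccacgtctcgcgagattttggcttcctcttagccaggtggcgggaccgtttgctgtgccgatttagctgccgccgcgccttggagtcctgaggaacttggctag
ZNF286A: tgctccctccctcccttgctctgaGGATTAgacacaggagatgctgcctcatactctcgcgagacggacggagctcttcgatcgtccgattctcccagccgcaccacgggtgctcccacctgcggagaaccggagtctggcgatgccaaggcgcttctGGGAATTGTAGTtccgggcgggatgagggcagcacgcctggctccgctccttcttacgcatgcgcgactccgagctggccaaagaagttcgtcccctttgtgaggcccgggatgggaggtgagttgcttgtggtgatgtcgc
ZNF106: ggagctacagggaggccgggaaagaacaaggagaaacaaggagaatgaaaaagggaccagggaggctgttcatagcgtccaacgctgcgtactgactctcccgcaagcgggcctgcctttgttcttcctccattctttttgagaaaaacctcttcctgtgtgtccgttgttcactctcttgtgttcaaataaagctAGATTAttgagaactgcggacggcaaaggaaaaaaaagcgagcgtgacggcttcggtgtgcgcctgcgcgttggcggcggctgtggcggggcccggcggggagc

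The OTX2 letters were found in 5 of the 128 ZNF promoters (3.91%), compared with 7.9% of 3606 promoters of other coding genes at the same level and 12.9% of all 27305 promoters. ZNF286A, which was higher (0.47, adjusted p = 0.0185), held GGATTA starting at position -226 from the gene start. ZNF106, which was lower (-0.52, adjusted p = 0.00434), held AGATTA at -54. The other 3 holders, ZNF609, ZNF747 and ZNF35, did not pass the test. None of the 54 ZNF promoters on chromosome 19 held either word. These counts describe letters in a short window, in which the median number of CpG dinucleotides was 23.5 in ZNF genes, 28 in other coding genes of that level and 14 over all promoters.

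The ZNF143 letters were more frequent. They stood in 18 of 128 ZNF promoters (14.1%), in 4.66% of the other coding genes at the same level and in 1.96% of all promoters. Both the largest rise and the largest fall were among the holders, and in ZNF189 the word occurs at 2 places in the window shown above. By direction, 6 of 48 promoters of higher genes held the letters (12.5%), 2 of 19 of lower genes (10.5%) and 10 of 61 of genes not called (16.4%). The ZNF143 gene read 6.74 in each OTX2 KD array and 6.97, 6.87 and 7.0 in scramble, without overlap, and its difference of -0.21 (SE 0.0779) did not pass the adjusted threshold, although it did under 3 of the alternative settings, centring among them (-0.30).

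On chromosome 19 lay 59 of the 146 ZNF genes (40.4%). Of these, 26 were higher, 9 lower and 24 not called, with a median of 0.24, whereas of the 87 on other chromosomes 27 were higher and 14 lower, with a median of 0.11. Of the other coding genes at that level on chromosome 19, 59 of 279 were higher and 124 lower, with a median of -0.22. With each array centred on its median, the counts were 21 higher and 13 lower on chromosome 19 and 20 and 18 elsewhere. The level limit also bears on these counts, since 10 of the 26 higher genes on chromosome 19 had a scramble mean under 6.0 and reached the limit through OTX2 KD, against 3 of the 27 elsewhere. Where both group means were at the limit, 16 of 43 genes on chromosome 19 were higher (37.2%) and 5 lower, and 24 of 79 elsewhere were higher (30.4%) and 11 lower. The difference between ZNF genes on chromosome 19 and those elsewhere was not tested.

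Neighbors on chromosome 19 were placed in the gene order of GRCh38.p14 and split into runs wherever more than 10 coding genes lay between members. Of 14 runs with 2 or more members, 1 had every member called in the same direction, 5 held calls in both directions and 3 held none. The stretches named next were chosen after their values were seen, and their counts are a description. They do not all follow the runs, since the first and second join neighboring runs. At the distal end, from ZNF71 to ZNF584, 9 of 10 members rose, namely ZNF71, ZNF264, ZNF460, ZNF543, ZNF548, ZNF134, ZNF776, ZNF606 and ZNF8, with changes between 0.41 and 1.13, while ZNF584, the last of them, fell by 0.60. Of these 10, ZNF548, ZNF776 and ZNF606 reached the level limit through OTX2 KD alone and ZNF584 through scramble alone, and the other 6 had both means at the limit. From ZNF506 to ZNF254, 6 of 10 rose, ZNF93 fell and 3 were not called. Of these 10, ZNF506 and ZNF91 reached the level limit through OTX2 KD alone. The other 8 had both means at the limit, with 4 higher and 1 lower. That stretch ends inside a run, whose next members were ZNF536 (0.54, higher) and ZNF507 (-0.57, lower). ZNF536 too was a member through OTX2 KD, with a scramble mean of 5.83. In contrast, between ZNF558 and ZNF562 only ZNF558 rose (0.38), ZNF266 and ZNF121 fell (by 0.30 and 0.39), and 3 were not called. The steepest step was between ZNF382, a KRAB gene that rose by 0.75 (SE 0.0782), and the next member, ZNF850, which fell by 1.41. Related ZNF genes share sequence, and whether probes of one cluster also bind transcripts of a close relative was not tested.

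**Figure D4:**
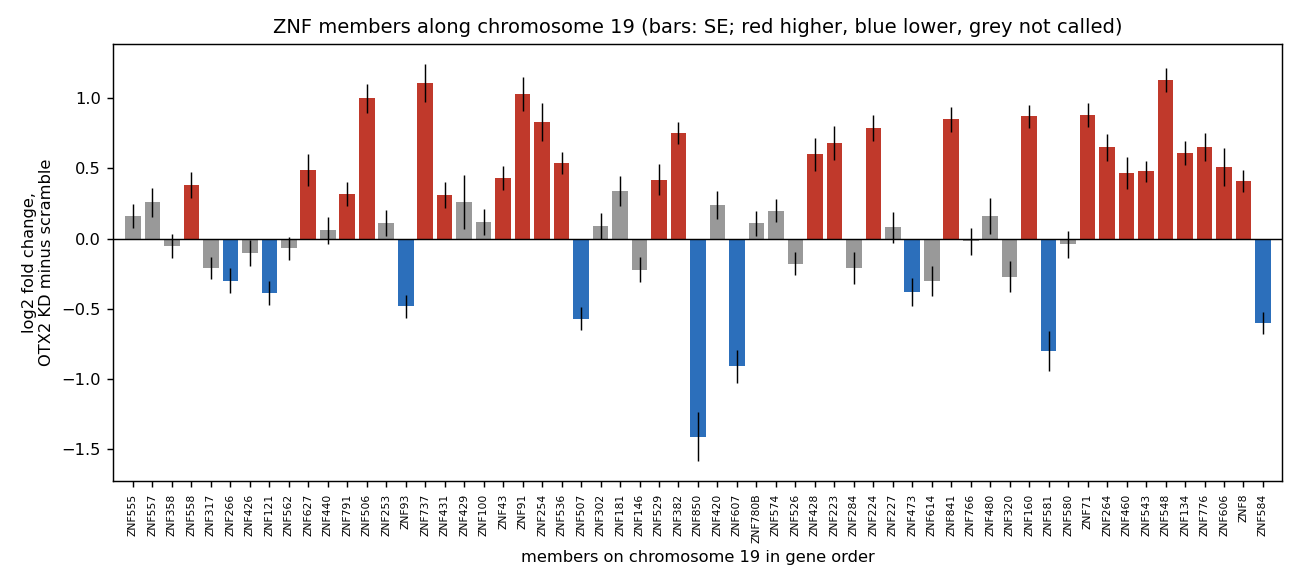
Log2 fold change of OTX2 KD over scramble (y axis, bars with standard error, n = 3 arrays a group) of the 59 ZNF genes of chromosome 19 in gene order (x axis). Red bars are higher, blue lower and grey not called at an adjusted p below 0.05, and 9 of the 10 genes from ZNF71 to the end are red.

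Of the KRAB zinc finger genes known from work on retroelements or imprinted regions, 7 reached the level, of which 4 were higher and 1 lower (median 0.45), in a list too short to set against the 36.3% and 15.8% of all ZNF members. ZNF91, which represses SVA elements, read 6.99, 7.17 and 6.91 in OTX2 KD and 5.92, 5.85 and 6.20 in scramble, a difference of 1.03 (SE 0.122, adjusted p = 0.00071). With a scramble mean of 5.99, it was a member through OTX2 KD. ZNF93, its relative that binds LINE elements, went the opposite way, with 7.20, 7.02 and 7.14 against 7.61, 7.59 and 7.60, and fell by 0.48 (SE 0.0822, adjusted p = 0.00409). Groups were without overlap in both. ZNF382 (0.75), ZNF264 (0.65) and ZNF248 (0.45) also rose, the last losing its call with centred arrays and when any of 4 arrays was left out. ZNF445, a regulator of imprinted regions, and ZNF317 had differences of 0.12 and -0.21 that did not pass.

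Of the 13 members with known roles in neural or retinal development and disease, 6 were higher (46.2%) and 2 lower (15.4%), with a median of 0.22, against 36.3% and 15.8% of all ZNF members. ZNF711, mutated in X-linked intellectual disability, read 7.44, 7.16 and 7.28 in OTX2 KD and 6.35, 6.44 and 6.5 in scramble, a difference of 0.86 (SE 0.0999, adjusted p = 0.000628). ZNF292, mutated in a neurodevelopmental disorder, read 7.62, 7.69 and 7.56 against 6.73, 6.74 and 6.90, a difference of 0.83 (SE 0.0879, adjusted p = 0.000407). ZNF536, a brain gene that restrains neuronal differentiation, read 6.35, 6.36 and 6.38 against 5.83, 5.88 and 5.77, a difference of 0.54 (SE 0.0769). Its scramble mean of 5.83 was under the limit of 6.0, so it was a member through OTX2 KD. In ZNF711, ZNF292 and ZNF536 the lowest OTX2 KD array was above the highest scramble array. ZNF335, a microcephaly gene (0.41), and ZNF513, a retinitis pigmentosa gene (0.39), rose as well, and ZNF148 (0.27) rose at the edge of the threshold, losing its call when any 1 array was left out.

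ZNF703 and ZNF507 were the lower members of that group. ZNF703, a corepressor known as an oncogene in luminal breast cancer, read 5.95, 5.98 and 6.10 in OTX2 KD and 7.0, 6.98 and 6.63 in scramble, and fell by 0.86 (SE 0.120, adjusted p = 0.00156). ZNF507 fell by 0.57 (SE 0.0829). ZNF462, ZNF142, ZNF526, ZNF24 and ZNF644 had differences between -0.18 and 0.22 and did not pass.

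Among 11 members that act in chromatin complexes, 3 were higher (27.3%) and 1 lower (9.09%), with a median of 0.18. The list was too short to set these shares against the 36.3% and 15.8% of all ZNF members. ZNF687, ZNF532 and ZNF592 encode related proteins that form a complex with the chromatin reader ZMYND8, and their values diverged. ZNF687 read 6.39, 6.14 and 6.34 in OTX2 KD and 7.13, 7.17 and 7.10 in scramble, and fell by 0.84 (SE 0.0929, adjusted p = 0.000505). ZNF532 read 9.30, 9.32 and 9.28 against 8.90, 8.91 and 8.90, a rise by 0.40 (SE 0.0727, adjusted p = 0.00559). ZNF592 read 8.50, 8.65 and 8.53 against 8.39, 8.42 and 8.29, with a difference of 0.19 that did not pass (adjusted p = 0.143). ZNF280D (0.57) and ZNF638 (0.45), the latter a partner of the HUSH silencing complex, also rose. ZNF280D had a scramble mean of 5.85, under the limit of 6.0, and so was a member through OTX2 KD.

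Of 7 members that act on RNA or ribosomes, 2 were higher (28.6%) and 3 lower (42.9%), with a median of -0.03. Among all ZNF members the shares were 36.3% and 15.8%, and among other coding genes at that level 23.6% and 40.6%. With so few genes, the shares of this list cannot be set against those. ZNF330 is described above. ZNF326, a subunit of a complex that couples transcript elongation to splicing, read 7.95, 7.85 and 7.82 in OTX2 KD and 8.51, 8.55 and 8.53 in scramble, and fell by 0.66 (SE 0.078, adjusted p = 0.00072). ZNF598, the ubiquitin ligase that marks collided ribosomes, fell by 0.46 (SE 0.121), a call that was lost when any of 4 arrays was left out and under a replicate block. ZNF706 went the other way, at 7.40, 7.45 and 7.5 against 6.64, 6.75 and 6.69, a rise by 0.75 (SE 0.079, adjusted p = 0.000395). ZNF622 and ZNF346 had differences of -0.03 and 0.00.

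None of 6 members linked to the cell cycle or genome maintenance passed the adjusted threshold, although all 8 proliferation markers fell. These 6 were too few to set against the 36.3% higher and 15.8% lower among all ZNF members. Their differences ran from -0.22 to 0.27, and 3 of the 6 had an unadjusted p below 0.05 in limma. ZNF207, a spindle checkpoint protein and the brightest of all ZNF genes, read 9.29, 9.31 and 9.26 in OTX2 KD and 9.30, 9.27 and 9.28 in scramble, a difference of 0.00 (SE 0.0734). ZNF830, a DNA repair and checkpoint factor, and ZNF318 both differed by 0.01. Under other settings the count differed. ZNF146 (-0.22), ZNF281 (0.27) and ZNF143 (-0.21) all passed when only brighter clusters were tested and with trend and robust variance, ZNF146 and ZNF143 also when arrays were centred, and ZNF281 also under the repeated quantile normalization and without scramble replicate 1.

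Higher genes outnumbered lower ones in each range of level, though by few among the brightest. Of 50 members with a mean from 6 to 6.5, 20 were higher and 9 lower, of 43 from 6.5 to 7 the counts were 12 and 7, of 38 from 7 to 8 they were 18 and 5, and of the 15 brightest they were 3 and 2. Among all clusters 14.8% were higher and 13.1% lower, and among other coding genes at 6.0 or more 23.6% and 40.6%. The other genes were not split by level. After ZNF207 (9.29), the brightest were ZNF532 (9.10) and ZNF358 (8.89), the last with a difference of -0.05 that did not pass. Some genes were members through 1 group only. In 15 the scramble mean was under 6.0, of which 13 were higher, and in 9 the OTX2 KD mean was under 6.0, of which 7 were lower. In the other 122 both means reached the limit, with 40 higher and 16 lower. Just inside the limit were ZNF250 (mean 6.004), ZNF320 (6.014) and ZNF182 (6.016), and just outside it ZNF639 (5.999), ZNF124 (5.995) and ZNF417 (5.992). Of the 321 ZNF genes under the limit, 64 were higher and 30 lower, with a median of 0.09.

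In 8 members a second, dimmer cluster had the same symbol. For ZNF322 both clusters rose (0.43 and 0.51). For ZNF224, a KRAB repressor, the brighter cluster rose by 0.79 (adjusted p = 0.000636), while the second differed by 0.22 (adjusted p = 0.285). The brighter cluster of ZNF770 fell by 0.54, and the second, at a mean of 1.18, differed by -0.06.

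Other zinc finger families at the same level were smaller. Of 22 ZBTB genes, in which the fingers follow a BTB domain, 4 were higher and 5 lower (median -0.06). SCAN-domain genes numbered 6 under the name ZSCAN, with 3 higher and 1 lower (median 0.24), and 3 under ZKSCAN, with 1 higher. Of 6 ZFP genes 2 were higher and 0 lower, and of 7 KLF genes, the Krüppel-like factors, 4 were higher and 1 lower (median 0.31). Among the ZNF members 36.3% were higher and 15.8% lower, among other coding genes at that level 23.6% and 40.6%, and among all clusters 14.8% and 13.1%. These families were too small to set against such shares, and no difference between families was tested.

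Genes of the machinery that KRAB proteins recruit were called in both directions. Of 43 listed corepressor genes, 34 had a cluster annotated to that symbol alone, and the rest were not followed. Of the 34, 12 were higher (35.3%), 10 lower (29.4%) and 12 not called (median 0.10). Among all clusters the shares were 14.8% and 13.1%, and among other coding genes at the ZNF level limit 23.6% and 40.6%. The corepressor list had no such limit, and DNMT3B, MPHOSPH8, SUV39H2, SUV39H1, PPHLN1 and DAXX had means under 6.0. DAXX had 5 clusters and SUV39H1 and HDAC2 had 2 each, of which only the brightest was taken. With centred arrays, and likewise with a replicate block, 8 of the 34 were higher and 10 lower. TRIM28, the scaffold that binds KRAB domains, read 8.94, 8.86 and 8.89 in OTX2 KD and 9.60, 9.52 and 9.28 in scramble, and fell by 0.57 (SE 0.103, adjusted p = 0.00513), without overlap. UHRF1, which brings DNMT1 to replicating DNA, read 5.84, 5.64 and 5.74 against 8.07, 8.05 and 8.02, and fell by 2.31 (SE 0.0849, adjusted p = 5.68e-06). The histone methyltransferases SUV39H2 (-1.35) and SUV39H1 (-1.13) were the other genes that fell by 2-fold, and DNMT1 fell by 0.52. UHRF1, DNMT1 and SUV39H1 are best known from dividing cells. Whether the falls in this list were linked to that of the 8 proliferation markers was not tested.

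The largest rises of this list were in MORC3, a chromatin ATPase (0.93, adjusted p = 0.00014), CHD3, a remodeler of the NuRD complex (0.86, adjusted p = 0.000157), and GATAD2B, another NuRD subunit (0.71, adjusted p = 0.000512). TRIM24 (0.71) and TRIM33 (0.46), relatives of TRIM28, rose while TRIM28 fell. Within NuRD, GATAD2A (-0.74) and RBBP7 (-0.88) fell while CHD3 and GATAD2B rose. The histone chaperone pair ATRX and DAXX likewise split, with ATRX higher by 0.63 and DAXX lower (-0.95).

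**Figure D5:**
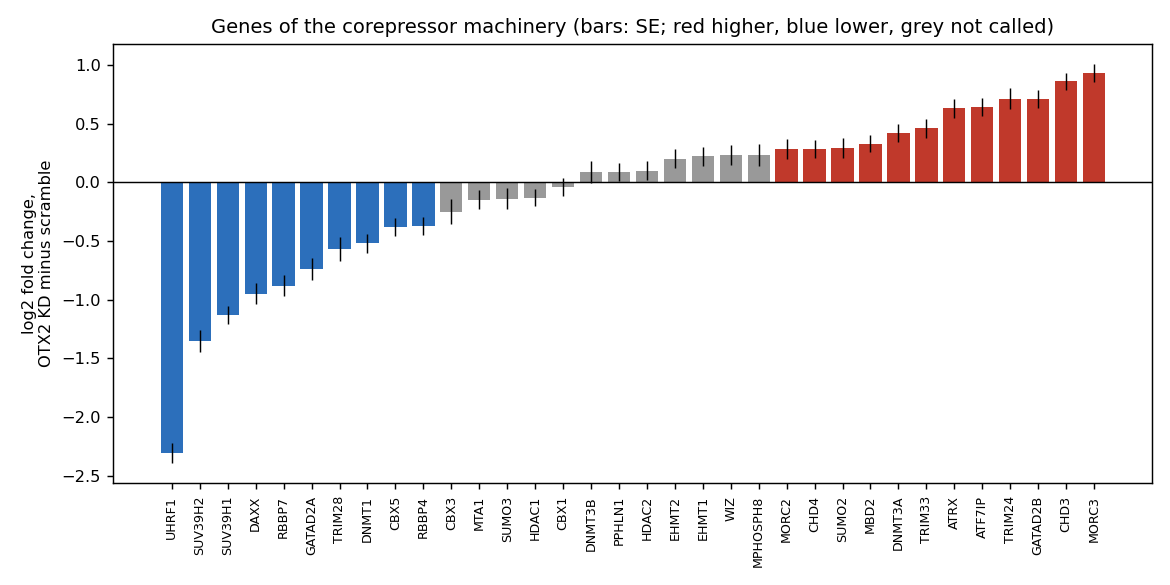
Log2 fold change of OTX2 KD over scramble (y axis, bars with standard error, n = 3 arrays a group) for the 34 listed corepressor genes with a cluster annotated to that symbol alone, in order of change (x axis). The 12 red bars are higher, the 10 blue bars lower and the 12 grey bars not called at an adjusted p below 0.05, from UHRF1 at -2.31 to MORC3 at 0.93.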

How the data were processed

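RNA from 3 OTX2 KD and 3 scramble samples was hybridized to Affymetrix HuGene 2.0 ST arrays. The deposited values were log2 RMA values, produced by the authors in Affymetrix Expression Console, with 1 value per transcript cluster after quantile normalization. No counts exist, and the number of arrays limits the precision. Groups and replicate numbers came from the sample titles. No source used here gives hybridization batches.

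The groups were compared with limma 3.58.1 (R 4.3.3), as a two-sided moderated test from lmFit and eBayes, over all 53617 clusters, with no filter on dim clusters and Benjamini-Hochberg adjustment over all of them. Errors are SE of the fitted difference or SD of a group. The fit was tested on simulated data of the same 53617 clusters, with 50 changed at each of log2 changes 0.5, 1, 2 and 3, of which 6, 30, 49 and 49 were recovered, and 3 of 53417 unchanged clusters were called. The simulation changed far fewer clusters than the 14966 that passed in the data, which makes its adjusted threshold stricter. Its recovered counts thus do not carry over to the data. Symbols came from the platform annotation, and gene order, biotype and promoters from RefSeq (GRCh38.p14). Of 471 ZNF symbols, 4 were pseudogenes and left out. KRAB domains and finger numbers were not counted here, because no protein sequences were used. The members and gene lists were chosen with earlier results of these data known, so their counts are a description.

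The rule for named genes took OTX2, the 12 largest rises and 12 largest falls past adjusted p 0.05 without overlap, members with a known role, the 3 brightest, the 3 on each side of the level limit, and the 3 largest rises and falls of the corepressor list. Any other gene was picked with its values in view. The alternatives tried were a replicate block, median centring, a repeated quantile normalization, brighter clusters only, trend and robust variance, level limits of 5.0 and 7.0, the mean of a gene's clusters, and leaving out each array. The split by chromosome 19, its stretches and the ZNF143 letters were chosen after seeing the data. Tables and plots used Python 3.11.15, pandas 2.3.3 and matplotlib 3.10.9.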

Additional observations from a re-analysis of the deposited data

How the results depend on the processing

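The 53 higher and 23 lower ZNF genes, of which 7 and 2 by 2-fold, became 94 and 41, 13 and 6, with a level limit of 5.0 (294 genes), and 21 and 7, 3 and 1, with a limit of 7.0 (53 genes), where the median log2 fold change was 0.19 in place of 0.15. The median was 0.06 with each array centred and 0.20 after quantile normalization was repeated, settings that moved the median of all clusters by -0.09 and -0.06. Leaving out each array in turn gave 40 to 46 higher, 17 to 21 lower, 5 to 7 and 2 to 3 by 2-fold, and medians of 0.12 to 0.16, of which the lowest was without scramble replicate 1. Chromosome 19 genes, a choice made after seeing the data, gave 21 to 24 higher and 7 to 8 lower then, and the other members 19 to 24 and 10 to 13. Corepressor genes were 8 to 9 higher, and 10 lower each time.

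With the replicate number as a block, 42 were higher and 19 lower. Deviations of same-numbered arrays correlated at -0.056, -0.023 and -0.001. The titles give only the number, and these correlations cannot show whether such samples were prepared together. Of the 76 calls, 61 were kept under the block, 64 with median centring, 75 after quantile normalization, 76 among brighter clusters or with trend and robust variance, and 59 to 65 with an array left out. In none of these settings did a called gene change sign. Of the single genes named for their roles, the calls of ZNF148, ZNF598 and ZNF248 were lost in some settings, and ZNF143, ZNF146, ZNF281, ZNF317, ZNF462, ZNF592 and ZNF618, not called, passed in some. The cause of these shifts was not tested. With 3 arrays a group, small differences may go undetected, and with 1 siRNA its effects on other transcripts cannot be told apart from those of OTX2.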
